A study of Rattus norvegicus with 12 samples.

Results

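The uteri of 3 rats given estradiol and 3-methylcholanthrene together were compared with those of 3 rats given the vehicle. These 6 arrays are part of a set of 12, 1 array per rat, and the comparison was made over every probe set of the deposited table with a single gene symbol. All 12 rats were ovariectomized young adult females of the Lewis strain, so the vehicle rats too lacked their ovaries, the main source of estrogens. The vehicle was DMSO. The daily dose of estradiol (E2) was 4 µg/kg and that of 3-methylcholanthrene (3-MC) was 15 mg/kg, and the fourth group, E2+3-MC, was given the pair. Dosing lasted 3 days with 3 rats in each group, and the uterus was taken 24 h after the final dose. The dose of 3-MC comes from the design text of the series. The labels of the E2+3-MC group give no doses of their own and were read as both single doses together.

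Estradiol enters uterine cells and binds estrogen receptor alpha, a transcription factor encoded by Esr1, which then acts at estrogen response elements and through other DNA-bound factors. In a rodent without ovaries it makes the luminal epithelium divide, secrete and draw in water, and it brings white blood cells into the tissue. 3-MC, a polycyclic aromatic compound, is a ligand of the AhR (aryl hydrocarbon receptor), which enters the nucleus once bound and whose usual targets are cytochrome P450 genes of the Cyp1 family, and ligand-bound AhR is known to interfere with estrogen receptor action in several tissues. The combined group thus carries an agonist of each receptor, and the vehicle group carries neither.

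The values are probe set intensities, analysed as log2(intensity + 16), and every fold below is on that scale, which understates the change of dim genes. Of 14506 named genes, 10154 were bright enough to be tested. A gene is said to have risen or fallen where its limma p-value was under 0.05 after Benjamini-Hochberg adjustment across those 10154 genes. Array medians of the 12 rats ran from 86.3 to 124 intensity units. The spread of values within an array, as an interquartile range in log2 units, was 1.87 to 2.35 on 11 arrays and 2.70 on that of vehicle rat 1. Vehicle rat 1 was also the highest of the vehicle rats for most of the gene groups described here, so its values are given singly, and the part this array plays in the differences was not tested. The rats are separate animals per the labels, so p-values measure the spread between these animals.

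Against vehicle, 796 genes changed with E2+3-MC, 7.84% of those tested. Of these, 615 rose (6.06% of genes tested) and 181 fell (1.78%), so that 77.3% of the changed genes were higher. For 755 of the 796 genes the 3 treated and the 3 vehicle rats did not overlap, which was so for 1818 genes, 17.9%, over all genes tested. Rises of at least 2-fold were found for 422 genes and falls of that size for 97, together 5.11% of genes tested. Rises of at least 4-fold were found for 109 genes and falls for 16. At 16-fold or more there were 18 rises and 1 fall. Of the genes that rose, 183 had a vehicle mean under the brightness limit of the test, 6.44 in log2 units. Their fold is thus set in part by the array's low end. The limit applied to the mean over all arrays, so these genes passed it through groups in which they were brighter. They are counted in the 77.3%. With no brightness limit 672 genes were called higher and 203 lower. With the lowest 50% left out, 422 were called higher and 119 lower.

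The number of calls moved with the scaling and with single rats. After quantile normalization 2647 genes were called, of which 48.9% were higher, and 791 of the 796 genes kept their call and sign. The calls on that scale were 12.8% of genes tested higher and 13.3% lower. Without vehicle rat 1, 2699 genes were called, 2483 higher and 216 lower. Without E2+3-MC rat 1 there were 460, 360 higher and 100 lower, and without E2+3-MC rat 3 438, 353 higher and 85 lower. Without vehicle rat 2, 429 were higher and 183 lower, without vehicle rat 3 411 and 243, and without E2+3-MC rat 2 674 and 156. List counts given below for such a setting belong beside its own totals, not beside 6.06% and 1.78%. The median difference over all genes tested was 0.05 on the deposited scale and -0.04 after quantile normalization.

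**Figure D1:**
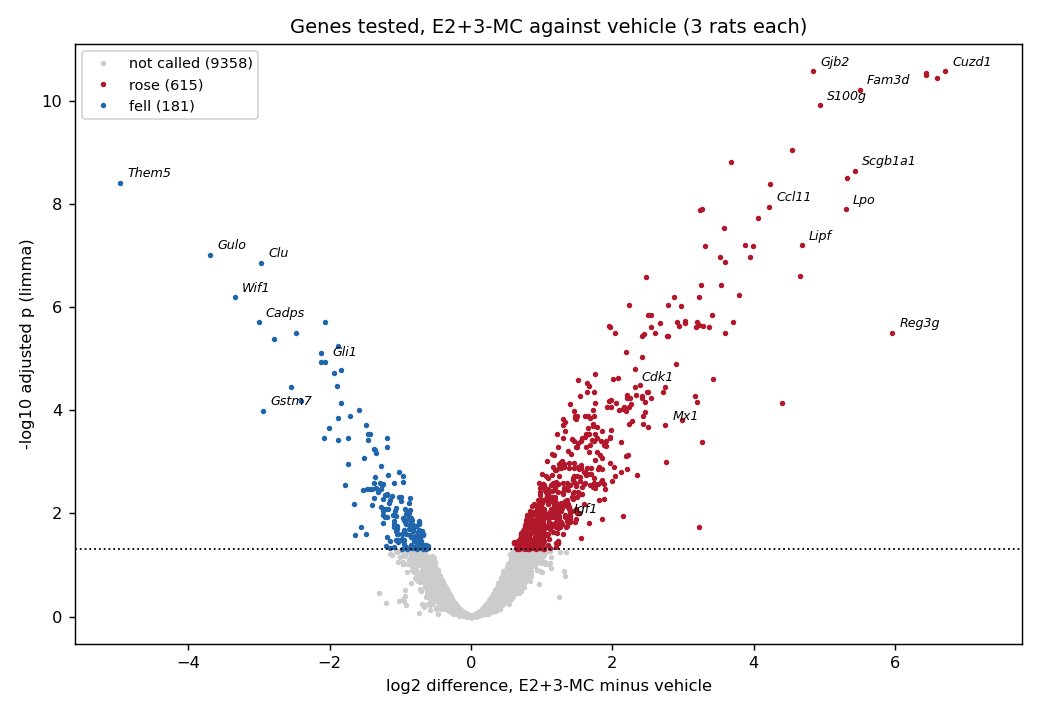
Log2 difference between the 3 E2+3-MC and the 3 vehicle rats (horizontal axis) against the -log10 of the limma adjusted p (vertical axis), 1 point per gene tested. The 615 genes that rose are red, the 181 that fell are blue, and the dotted line marks the 0.05 threshold. The right arm reaches 6.71 for Cuzd1 and the left arm -4.97 for Them5.

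The 15 largest rises were led by Cuzd1 and Mmp7. Cuzd1 (probe set 10726230), a CUB-domain membrane protein of the uterine epithelium, had intensities of 18.5, 39.6 and 23.2 in the vehicle rats and 4057, 3786 and 5531 in the E2+3-MC rats, a log2 difference of 6.71 ± 0.25 (SE, n = 3 per group, adjusted p = 2.64e-11). Mmp7, the epithelial matrix metalloprotease matrilysin, went from 19.2, 29.8 and 25.3 to 3937, 2415 and 6239, a difference of 6.60 ± 0.28. C3 (probe set 10931717), the central protein of the complement cascade and a long-used marker of estrogen action in the rat uterus, was at 59.5, 33.0 and 36.8 with vehicle and 4767, 3979 and 6606 with both compounds, a difference of 6.44 ± 0.26 (adjusted p = 2.87e-11). In all 3 genes the lowest treated rat lay far above the highest vehicle rat, and vehicle values were near the dim end of the array.

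S100g, which encodes the calcium-binding protein calbindin-D9k, was the only gene among the 15 with a vehicle mean above the brightness limit. Its values were 106, 143 and 113 with vehicle and 3826, 3581 and 5154 with E2+3-MC, a 30.6-fold rise (4.93 ± 0.23 in log2 units, adjusted p = 1.20e-10). Reg3g, a secreted antibacterial lectin, scattered widely among treated rats, with 11.3, 32.6 and 66.8 with vehicle and 3672, 718 and 9726 with both compounds, a difference of 5.96 ± 0.60 (adjusted p = 3.10e-06). Olfm4, a secreted olfactomedin glycoprotein, did so too, with 592, 84.2 and 1355 in the treated rats against 0.0308, 5.80 and 9.48 with vehicle, a difference of 4.40 ± 0.58 (adjusted p = 7.11e-05). Only called genes whose groups did not overlap were ranked among the 15, so the lack of overlap here was set by that rule.

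The other large rises were of the serine protease gene Prss32 (6.44), the cytokine-like Fam3d (5.50) and Fam3b (4.55), the secretoglobin Scgb1a1 (5.43), the mucosal scavenger glycoprotein Dmbt1 (5.32), lactoperoxidase Lpo (5.30), the gap junction protein connexin 26 Gjb2 (4.84), gastric lipase Lipf (4.68) and the membrane protease Tmprss11b (4.66), each as a log2 difference. Their adjusted p-values lay between 2.64e-11 for Gjb2 and 2.47e-07 for Tmprss11b. In all 15 genes E2+3-MC rat 3 was the highest of the 3 treated rats and rat 2 the lowest. Rat 2 was the lowest of the 3 for 59.0% of all genes tested and rat 3 the highest for 53.7%, and after quantile normalization for 40.2% and 40.2%, so part of this order was shared by the arrays as a whole. After that normalization rat 2 remained lowest for 15 of the 15 genes and rat 3 highest for 14.

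**Figure D2:**
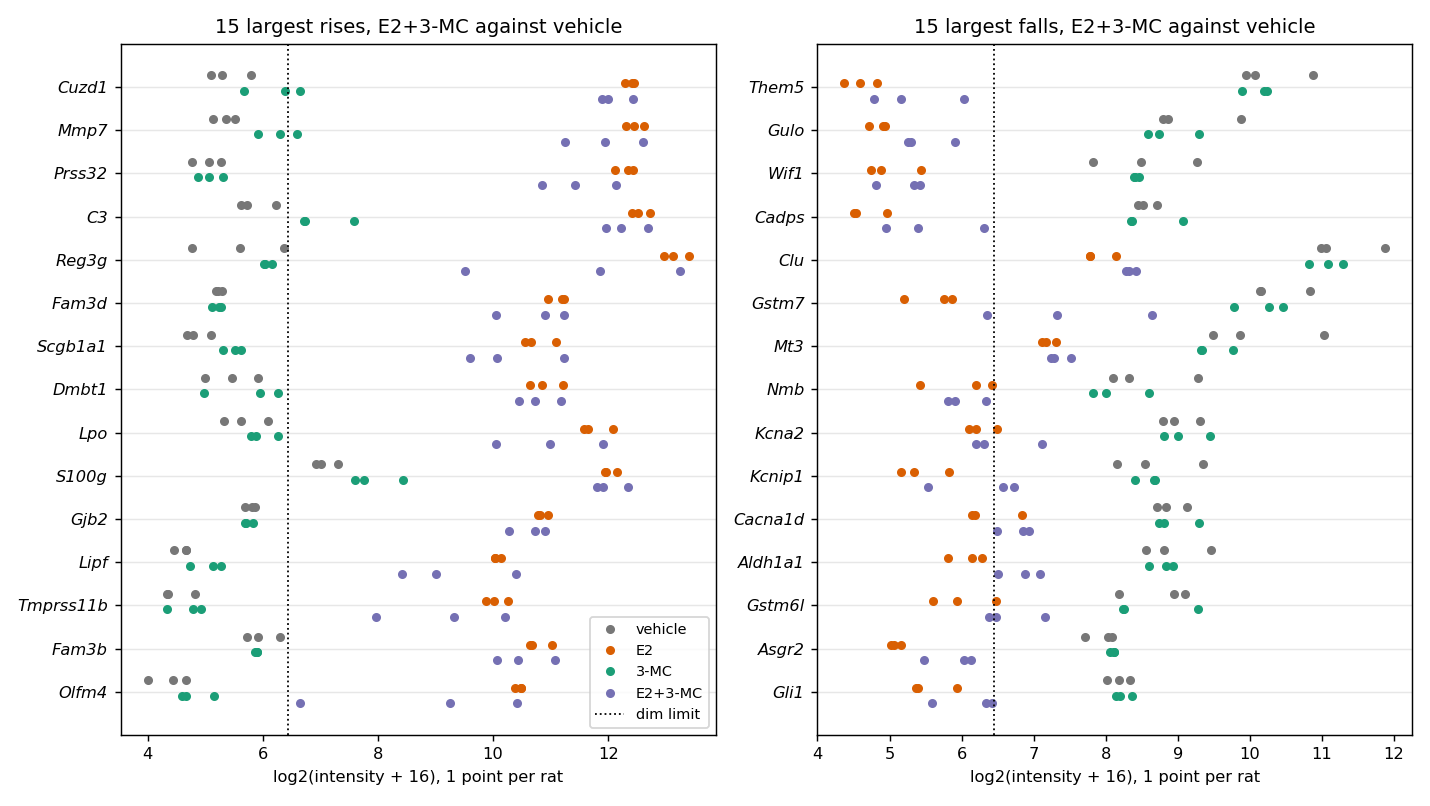
Level of each of the 15 largest rises (left) and the 15 largest falls (right) as log2(intensity + 16), 1 point per rat, coloured by group, with the brightness limit of 6.44 as a dotted line. Only genes whose groups did not overlap were chosen. By that rule the 3 E2+3-MC rats lie above the 3 vehicle rats in every gene on the left. On the right they lie below the vehicle rats in every gene. Vehicle means lie under the limit for 14 of the 15 rises.

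The sequence just upstream of some of these genes is shown because 2 of the largest rises held 3 copies each of GGTCA, one arm of the palindromic estrogen response element, and because the AhR repressor gene, whose level was near vehicle, held 3 AhR cores. The windows are the 250 bases before the start site in RefSeq promoters of assembly GRCr8, and 30 of 41 named genes looked up had an entry. Capitals mark the arm GGTCA, read on either strand (TGACC on the other), in the first 3 sequences, and the core of the AhR response element, GCGTG, read on either strand, in the fourth. Cuzd1 lies on the minus strand with its window at chr1:195532734-195532983, C3 on the minus strand at chr9:2201340-2201589, Olfm4 on the plus strand at chr15:61815981-61816230 and Ahrr on the plus strand at chr1:30821969-30822218.
Cuzd1: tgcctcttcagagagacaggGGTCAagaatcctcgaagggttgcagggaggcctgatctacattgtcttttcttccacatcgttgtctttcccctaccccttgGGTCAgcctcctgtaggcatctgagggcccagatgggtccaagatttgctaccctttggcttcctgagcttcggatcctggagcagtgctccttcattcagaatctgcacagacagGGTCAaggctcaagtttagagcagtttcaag
C3: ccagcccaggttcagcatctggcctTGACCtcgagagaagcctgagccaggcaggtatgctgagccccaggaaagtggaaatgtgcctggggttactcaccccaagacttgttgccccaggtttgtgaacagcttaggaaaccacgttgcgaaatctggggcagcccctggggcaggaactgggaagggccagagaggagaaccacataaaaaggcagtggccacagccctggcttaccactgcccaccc
Olfm4: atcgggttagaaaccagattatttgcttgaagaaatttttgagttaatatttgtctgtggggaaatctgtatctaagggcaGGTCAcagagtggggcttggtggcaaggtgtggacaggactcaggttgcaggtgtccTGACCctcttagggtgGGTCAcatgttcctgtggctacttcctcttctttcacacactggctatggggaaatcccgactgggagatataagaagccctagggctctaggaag
Ahrr: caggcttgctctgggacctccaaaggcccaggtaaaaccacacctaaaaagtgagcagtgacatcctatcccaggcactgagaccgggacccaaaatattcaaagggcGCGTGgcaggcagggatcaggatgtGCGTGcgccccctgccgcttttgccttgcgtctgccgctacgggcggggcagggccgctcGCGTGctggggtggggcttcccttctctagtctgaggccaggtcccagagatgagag

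The full palindrome, GGTCA and TGACC parted by any 3 bases, of which the arm is a part, was searched on both strands and was in 8 of 33469 RefSeq windows of this length (0.0239%), in 0 of 487 genes that rose and had a window, and in 0 of 141 that fell. The arm was in 35.4% of all windows, in 33.5% of those of the genes tested, in 37.2% for genes that rose and in 29.1% for genes that fell. The AhR core was in 25.9% of all windows, in 43.2% of those of the genes tested, in 32.9% for genes that rose and in 36.2% for genes that fell. These are matches of letters in a short window and say nothing of binding.

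Genes known as estrogen-induced uterine secretions, a list drawn up with results of these data known, held 12 members that rose of 19 tested, and 0 fell. Their median log2 difference was 2.79, beside 0.05 over all genes. Besides those above, Lcn2, an iron-siderophore-binding lipocalin, rose by 3.17, the protease inhibitor Slpi by 2.76, the mucosal chemokine Cxcl17 by 2.79 and the calcium-binding S100a9 by 2.00. Lactoferrin, Ltf, a much used estrogen marker in the mouse uterus, was too dim to be tested, at 25.5, 48.8 and 31.0 with vehicle and 39.8, 39.3 and 49.99 with E2+3-MC. Muc1, the surface mucin, was not called (difference 0.49 ± 0.24, adjusted p = 0.277).

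Markers of luminal and glandular epithelium moved up as well, with 10 of 24 tested members called higher and 0 lower and a median difference of 0.77. Elf3, an epithelial transcription factor, rose from 217, 83.2 and 101 to 1093, 818 and 1575 (3.03 ± 0.29, adjusted p = 1.84e-06). The keratin Krt8 went from 638, 287 and 289 to 2167, 746 and 2958, a difference of 2.12 ± 0.38 (adjusted p = 0.00156), and Krt19 differed by 1.97 ± 0.34. E2+3-MC rat 2 stood near vehicle rat 1 for Krt8 and well below the other treated rats. Dsc2, a desmosomal cadherin, rose by 2.51 and Prom1, a glycoprotein of apical membranes, by 2.26. The adhesion genes Epcam (0.62, adjusted p = 0.136) and Cdh1 (0.55, adjusted p = 0.367) were higher by value without being called. The mean level over the 24 markers was 8.83, 7.998 and 7.95 in vehicle rats 1 to 3 and 9.22, 8.83 and 9.47 in E2+3-MC rats 1 to 3. In bulk tissue, a larger share of epithelial cells and more RNA per epithelial cell cannot be told apart. The list had 17 rises without vehicle rat 1 and 7 without E2+3-MC rat 3.

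Of 20 ion and water transport genes tested, 5 rose and 3 fell, and 9 rose without vehicle rat 1. Cftr, the apical chloride channel, went from 32.8, 27.1 and 32.1 to 777, 460.3 and 1224, a 16.7-fold rise (4.06 ± 0.27, adjusted p = 1.88e-08). The chloride channel regulators Clca4 and Clca1 rose by 3.29 and 3.03, the anion exchanger pendrin, Slc26a4, by 1.68, and the chloride channel Clcn2 by 1.18. Lower were Fxyd4, a regulator of the sodium pump, from 1059.9, 671 and 704 to 216, 152 and 356 (-1.73 ± 0.27), carbonic anhydrase Car2 (-1.19) and the water channel Aqp5 (-1.03).

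Of 21 nutrient carriers, 5 rose and 1 fell. Slc6a14, an amino acid transporter, went from 34.4, 41.8 and 26.6 to 716, 459 and 1308 (3.95 ± 0.30, adjusted p = 1.06e-07). The lactate carrier Slc16a3 rose by 1.97 and the related monocarboxylate carrier Slc16a7 fell by 0.83 on the log2 scale. Of 23 mucin and glycan genes, 5 rose and 1 fell. Galnt3, which starts mucin-type O-glycans, went from 32.0, 31.5 and 28.8 to 439, 315 and 582 (3.26 ± 0.21), and the glycosyltransferase B3gnt3 differed by 2.68, the sulfotransferase Chst4 by 1.98 and Muc20 by 1.74. The sialyltransferase St6galnac2 was called lower (-0.85, adjusted p = 0.041). With vehicle rat 1 left out the glycan list had 16 rises and the carrier list 11. The glycan list had 8 without E2+3-MC rat 2, and the carrier list had 3 without vehicle rat 2 and 2 without vehicle rat 3, E2+3-MC rat 1 or E2+3-MC rat 3.

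Of 18 complement genes tested, 7 rose and 1 fell, and 15 were higher by value. Next to C3, the C3b-cleaving factor I, Cfi, went from 24.98, 27.1 and 22.8 to 297, 363 and 474 (3.24 ± 0.21, adjusted p = 1.31e-08), the decay-accelerating surface protein Cd55 rose by 2.46, and C7, part of the membrane attack complex, by 2.03. Receptors for the C3a and C5a fragments, C3ar1 and C5ar1, rose by 1.24 and 1.03. Clu (probe set 10781166), the chaperone clusterin, which also inhibits the membrane attack complex, fell from 3749, 2016 and 2108 to 325, 305 and 296, to 0.128 of the vehicle level (-2.96 ± 0.23, adjusted p = 1.37e-07). The 3 treated rats agreed closely on it. The list had 14 rises without vehicle rat 1.

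Of 27 chemokines and their receptors, 7 rose and 1 fell. Ccl11, eotaxin, which draws eosinophils, went from 109, 58.2 and 73.1 to 1632, 1219 and 2609, a 18.6-fold rise (4.22 ± 0.27, adjusted p = 1.12e-08). Cxcl6, a neutrophil-attracting chemokine, was at 19.0, 18.4 and 34.2 with vehicle and 590.0, 85.5 and 859 with both compounds (3.27 ± 0.51, adjusted p = 4.03e-04), with rat 2 far under the other treated rats. Ccr2, a receptor of monocytes, went from 109, 49.1 and 45.7 to 364, 322 and 372 (2.21 ± 0.29), and its ligand Ccl7 rose by 1.70. Ccl21, a lymphoid chemokine, was the member that fell (-1.03, adjusted p = 0.0361).

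Of 26 interleukin and TNF genes, 6 rose and 0 fell. They were the interleukin 1 receptor antagonist Il1rn (2.43), the decoy receptor Il13ra2 (1.98), Lif (1.31), a cytokine that the uterus needs for implantation, the TNF receptor Tnfrsf1b (1.08), Il18 (1.05) and Il1b (1.01). Il18 had tight groups, 76.3, 74.4 and 62.0 against 163, 169 and 157. Lif was at 62.6, 36.9 and 36.6 with vehicle and 145, 82.2 and 193 with E2+3-MC. Leaving out vehicle rat 1 gave 14 chemokine and 12 interleukin and TNF genes called higher.

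The interferon-induced genes had the highest share called among lists of at least 10 tested members. Of 30 tested, 22 rose, 73.3% beside 6.06% of all genes, and 0 fell, with a median difference of 1.08. Mx1, an antiviral GTPase, was at 151, 42.1 and 39.4 with vehicle and 608, 519.8 and 469.7 with E2+3-MC (2.75 ± 0.40, adjusted p = 1.92e-04). Ifit3 went from 156, 86.2 and 64.3 to 664, 414 and 489 (2.24 ± 0.30), the ubiquitin-like Isg15 from 375, 202 and 191 to 1291, 829.7 and 1553 (2.21 ± 0.28), and Irf7, the transcription factor that amplifies interferon production, from 286, 122 and 101 to 615, 644 and 559.7 (1.88 ± 0.30). In these 4 genes vehicle rat 1 was the highest of its group and the treated rats were all higher still. The mean level over the list was 8.21, 7.44 and 7.23 in the vehicle rats and 8.84, 8.62 and 8.80 in the E2+3-MC rats, so the groups did not overlap. Without vehicle rat 1, 29 members were called higher, and without E2+3-MC rat 1, 14. Macrophage markers moved with this list, as given next, and their part in it was not tested.

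Of 19 tested macrophage markers 9 rose and 0 fell, with a median difference of 1.00. Cd68, a lysosomal protein of macrophages, went from 378, 117 and 112 to 572, 756 and 618 (1.81 ± 0.38, adjusted p = 0.00558). The antibody receptor chain Fcer1g was at 1609, 377 and 427 (vehicle) against 1937, 1756 and 2065 (E2+3-MC) (1.56 ± 0.43, adjusted p = 0.0304). Fcgr1a (1.40), Ms4a7 (1.28) and Cd14 (1.26) rose as well. Csf1r, the receptor that macrophages need to live, was not called, at 432, 160.4 and 156 (vehicle) against 433, 351 and 399.6 (E2+3-MC) (0.78 ± 0.31, adjusted p = 0.174), nor was the mannose receptor Mrc1 (0.38, adjusted p = 0.604). The hemoglobin scavenger receptor Cd163 was too dim to be tested. This list leaned on single rats. Its mean level was 8.60 in vehicle rat 1 but 7.34 and 7.42 in rats 2 and 3, against 8.64, 8.56 and 8.82 in the E2+3-MC rats. Leaving out vehicle rat 1 gave 17 members called, leaving out vehicle rat 2, vehicle rat 3 or E2+3-MC rat 1 gave 3, 4 and 3, and leaving out E2+3-MC rat 3 gave 1. The summed intensity of the list was 3736 to 11500 in the vehicle rats and 10580 to 12520 in the E2+3-MC rats.

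Of 6 neutrophil markers tested, 3 rose: the antibody receptor Fcgr3a (2.50), S100a9 (2.00) and the G-CSF receptor Csf3r (0.79, adjusted p = 0.0469). Neither of the 2 tested eosinophil markers was called (Siglec5 -0.10, Alox15 -0.12), although the eosinophil chemokine Ccl11 was among the larger rises. None of 6 T, NK and B cell markers and none of 5 dendritic cell markers was called, with Cd3e at 0.40 and Clec10a at 0.74 by value. In antigen presentation 4 of 19 rose, the lysosomal protease Ctss (1.47) and the immunoproteasome subunits Psmb8 (1.33), Psmb9 (1.03) and Psmb10 (0.96). That count was 12 after quantile normalization, 16 without vehicle rat 1, and 2 without vehicle rat 2, vehicle rat 3 or E2+3-MC rat 3.

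**Figure D3:**
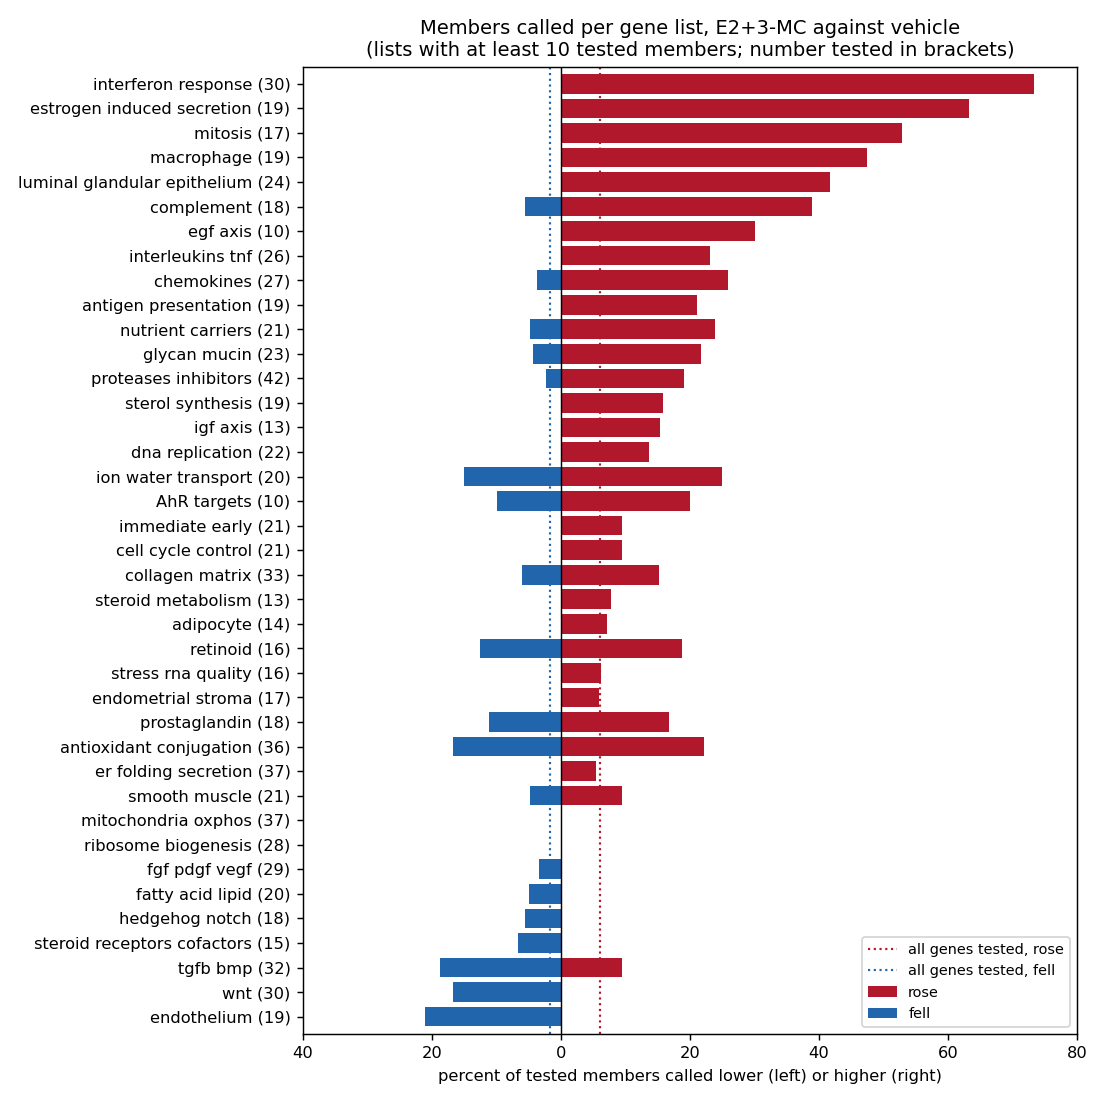
Percent of the tested members of each gene list that fell (blue, to the left) or rose (red, to the right) with E2+3-MC against vehicle, for lists with at least 10 tested members, with the number tested in brackets. Dotted lines mark the share over all genes tested, 6.06% rose and 1.78% fell; interferon response reaches 73.3% and endothelium stands at the foot.

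Of 17 mitosis genes tested, 9 rose and 0 fell, with a median difference of 0.92. Cdk1, the kinase that drives entry into mitosis, went from 41.9, 25.4 and 22.1 to 309, 127 and 227 (2.31 ± 0.28, adjusted p = 3.46e-05). Kif23, a kinesin of the dividing cell's midzone, went from 74.2, 47.8 and 56.6 to 506, 196 and 377 (2.23 ± 0.32), and Top2a, the topoisomerase of dividing cells, from 118, 61.7 and 55.4 to 434, 214 and 148 (1.50 ± 0.34, adjusted p = 0.0098). E2+3-MC rat 1 was the highest treated rat in 16 of the 17 genes, on the deposited and on the quantile scale, against 26.3% and 22.6% of all genes tested. The mean over the list was 8.05 in that rat, 7.21 and 7.07 in rats 2 and 3, and 6.66, 6.37 and 6.31 in the vehicle rats. The count of mitosis rises was 2 without E2+3-MC rat 1 and 4 without vehicle rat 2 or rat 3.

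Of 22 DNA replication genes 3 rose: the ribonucleotide reductase subunit Rrm2 (53.0, 27.9 and 42.8 against 732, 145 and 181, 2.35 ± 0.43), the origin licensing factor Cdc6 (2.01 ± 0.24) and the sliding clamp Pcna (453, 350.1 and 254 against 783, 449.9 and 639, 0.80 ± 0.23, adjusted p = 0.0453). Pcna overlapped between groups, as E2+3-MC rat 2 lay under vehicle rat 1. The helicase subunit Mcm2 was not called (0.37, adjusted p = 0.508). The cell cycle inhibitor Cdkn1a rose by 1.58 and the stress-induced Gadd45g by 1.19, the 2 members called among 21 cell cycle control genes. Of 21 immediate early genes, Fos (2.16) and Mycn (42.2, 41.4 and 28.6 against 183, 200.2 and 223, 2.04 ± 0.21) rose. In the cell cycle control and the immediate early list alike, the share called higher was 9.52%, beside 6.06% of all genes. By value, 13 of the 21 cell cycle control genes were lower, and 14 of the 21 immediate early genes were higher. The immediate early count was 10 without vehicle rat 1, the DNA replication count 8 and the cell cycle control count 4. In that setting 2483 of all genes tested were called higher. None of 28 ribosome biogenesis genes and none of 37 respiratory chain genes was called with all rats in the model. By value 34 of the 37 respiratory chain genes were higher, and 21 of them were called without vehicle rat 1, as were 2 ribosome biogenesis genes.

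Among growth factors and their receptors, Igf1, a stromal growth factor that carries part of the estrogen signal to the epithelium, was at 1508, 477 and 599.8 with vehicle and 2265, 1473 and 2252 with E2+3-MC (1.35 ± 0.32, adjusted p = 0.0123). Vehicle rat 1 lay above E2+3-MC rat 2, so the groups overlapped. Its receptor Igf1r was not called (-0.46, adjusted p = 0.292), and the binding protein Igfbp2 rose by 1.32. In the EGF family 3 of 10 rose: the ligands betacellulin, Btc (47.0, 57.0 and 51.5 against 193, 146 and 353, 1.78 ± 0.26), and Nrg1 (0.87), and the receptor Erbb3 (0.82). That count was 1 without vehicle rat 3, E2+3-MC rat 1 or E2+3-MC rat 3, and the 2 rises of the IGF list were lost without vehicle rat 2, E2+3-MC rat 1 or E2+3-MC rat 3. Of 29 FGF, PDGF and VEGF genes 0 rose and 1 fell, the VEGF receptor Flt1.

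Among 15 steroid receptors and cofactors 0 rose and 1 fell. Esr1 was at 3617, 1874 and 1859 with vehicle and 1843, 1627 and 2117 with E2+3-MC (-0.33 ± 0.25, adjusted p = 0.568). Pgr, the progesterone receptor and a known estrogen target, was at 1728, 1310.2 and 1216 (vehicle) against 2218, 1788 and 2957 (E2+3-MC); its 3 treated rats were all above its vehicle rats, but it was not called on the deposited scale (0.69 ± 0.22, adjusted p = 0.0623). After quantile normalization the difference of 0.49 in Pgr passed the threshold (adjusted p = 0.0219). The mineralocorticoid receptor Nr3c2 was the member that fell (-0.85, adjusted p = 0.0157), and Esr2 was too dim to be tested. Hsd11b2, which inactivates glucocorticoids and so protects that receptor, went up from 241, 123 and 126 to 1152, 608 and 2089 (2.75 ± 0.34, limma adjusted p = 3.60e-05). It was the one call among 13 steroid metabolism genes with all rats in the model, 7.69% beside 6.06% of all genes called higher. Without vehicle rat 1, 6 of the steroid metabolism genes rose.

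The extracellular matrix list had 5 rises and 2 falls among 33 tested, 22 rises without vehicle rat 1, and 3 without vehicle rat 2, vehicle rat 3 or E2+3-MC rat 1. Col1a1 and Col1a2, the chains of type I collagen, rose by 1.55 and 1.19, the proteoglycans Vcan by 1.74 and Ogn by 1.19. Col1a1 was at 1212, 770.1 and 714 with vehicle and 3147, 2333 and 2376 with E2+3-MC. Efemp1, a fibulin of elastic tissue, fell from 3143, 1357 and 1422 to 807, 1069.7 and 702 (-1.09 ± 0.27, adjusted p = 0.0158). Of 42 proteases and inhibitors 8 rose and 1 fell, with 25 rises without vehicle rat 1 and no fall without E2+3-MC rat 1, 2 or 3. The inhibitor Timp1 went from 279, 204 and 225 to 1446, 884 and 1822 (2.42 ± 0.25) while Timp3 fell by 1.04 on the log2 scale (adjusted p = 0.0172), and Serpinb1a, an inhibitor of neutrophil proteases, rose by 2.87.

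Among muscle genes, smooth muscle gamma actin, Actg2, was at 5536, 2851 and 2898 (vehicle) against 6432, 6344 and 8742 (E2+3-MC) (0.98 ± 0.25, adjusted p = 0.0173) and desmin, Des, rose by 0.97. Pln, phospholamban, which brakes the calcium pump, fell from 944, 410.2 and 491 to 287, 264 and 166 (-1.25 ± 0.28). These were the members called of 21 smooth muscle genes, 9.52% higher and 4.76% lower beside 6.06% and 1.78% of all genes. The list had 8 rises without vehicle rat 1, 1 without E2+3-MC rat 1 and none without vehicle rat 2, vehicle rat 3 or E2+3-MC rat 3. The gap junction gene Gja1 (1.13, adjusted p = 0.0714) and the oxytocin receptor Oxtr (0.76, adjusted p = 0.161), both known for a part in uterine contraction, were not called, and in both vehicle rat 1 lay within the treated range. Acta1, skeletal alpha actin, which the uterus also makes, rose by 1.63, whereas the fast skeletal troponins Tnnc2 (-1.35) and Tnni2 (-1.09) fell.

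The 15 largest falls were led by Them5, an acyl-CoA thioesterase, at 1864, 1055 and 972 with vehicle and 11.6, 49.7 and 19.9 with E2+3-MC (-4.97 ± 0.29, adjusted p = 3.85e-09). Gulo, whose enzyme completes the synthesis of ascorbate, fell from 925, 449.8 and 429 to 22.2, 44.3 and 23.2 (-3.69 ± 0.28). Cadps, which primes secretory vesicles, went from 334, 349.8 and 401 to 26.2, 63.2 and 14.9 (-3.004 ± 0.29). These 3 genes ended under the brightness limit in the treated rats, as did 8 of the 15 in all, so their folds are set in part by the low end of the array. The 15 also held the neuropeptide Nmb (-2.54), the potassium channel Kcna2 (-2.48), the potassium channel-interacting protein Kcnip1 (-2.41) and the calcium channel Cacna1d (-2.13). Kcna2 was at 616, 479 and 428 (vehicle) against 63.4, 122 and 57.4 (E2+3-MC). Asgr2, a subunit of the asialoglycoprotein receptor, fell by 2.07 on the log2 scale.

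Glutathione transferases of the mu class and metallothioneins led the falls in a list that moved both ways. Of 36 antioxidant and conjugation genes 8 rose and 6 fell, with a median difference of 0.01. Gstm7 fell from 1806, 1125 and 1112 to 145, 381 and 65.6 (-2.94 ± 0.40, adjusted p = 1.02e-04) and Gstm1 from 4196, 2244 and 2706 to 822, 1007 and 641 (-1.84 ± 0.24). Gstm2 (-1.25) was called lower too, as was Gstm6l (-2.07), which is not on the list. The members of this family are close in sequence, and binding of one transcript to the probes of another was not tested. The metal-binding Mt1 fell from 7711, 3716 and 5285 to 1481, 2057 and 1371 (-1.72 ± 0.24) and Mt2A from 8819, 5258 and 7628 to 1468, 2980.1 and 1579 (-1.88 ± 0.27). Sult1a1 was the other list member that fell. Mt3, also not on the list, fell from 2068, 705 and 912 to 136, 166 and 139 (-2.78 ± 0.29). The rises were of peroxide-handling and redox genes, among them Gpx2 (619, 349.6 and 400.2 against 2961, 1538 and 3199, 2.42 ± 0.27), Gpx1 (1.39), Sod2 (1.12) and Prdx1 (1.05). Without vehicle rat 1 this list had 15 rises and 6 falls, and without vehicle rat 3 it had 3 rises and 7 falls. It had 4 rises without vehicle rat 2 and 3 without E2+3-MC rat 1 or rat 3.

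In the Wnt pathway 0 of 30 tested genes rose and 5 fell, with a median difference of -0.41. Wif1, a secreted Wnt inhibitor, fell from 597, 211 and 345 to 12.1, 24.3 and 26.8 (-3.34 ± 0.29, adjusted p = 6.39e-07). The R-spondin receptor Lgr5, which marks epithelial stem cells in several tissues, went from 1849, 913 and 819 to 528, 734 and 395 (-1.04 ± 0.29, adjusted p = 0.0329), the feedback target Axin2 from 997, 436 and 391 to 293, 298 and 251 (-0.95 ± 0.26, adjusted p = 0.0322), and Lgr4 (-0.77) and Wnt2b (-0.69) fell too. Lef1 (-0.68, adjusted p = 0.0529) and Wnt5a (0.45, adjusted p = 0.404) were not called. The count of falls was 15 after quantile normalization, 8 without vehicle rat 3 and 1 without E2+3-MC rat 1 or rat 3, and 4 members rose without vehicle rat 1. Over all genes tested, 13.3% were called lower after quantile normalization, and 2483 were called higher without vehicle rat 1.

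Hedgehog and Notch genes had 1 fall and 0 rises among 18, 11 falls after quantile normalization and 3 without vehicle rat 1 or rat 3, with a median difference of -0.47 on the deposited scale. The fall was that of Gli1, the transcription factor that reads out hedgehog signalling, from 306, 275 and 242 to 65.2, 69.4 and 32.2 (-2.06 ± 0.23, adjusted p = 1.14e-05). The hedgehog signal transducer Smo (-0.49) and Gli2 (-0.76) were lower by value, with adjusted p-values of 0.319 and 0.196. Of 32 TGF-beta and BMP genes 6 fell and 3 rose. The falls included the BMP target genes Id3 (887, 342 and 308 against 126, 209 and 123, -1.52 ± 0.30), Id1 (-1.26) and Id2 (-1.17), the ligands Bmp7 (-1.28) and Gdf10 (-1.44) and the receptor Bmpr1b (-1.19). Rises were of the latent TGF-beta binding proteins Ltbp2 (33.7, 64.8 and 36.8 against 265, 272 and 577, 2.61 ± 0.26) and Ltbp1 (1.20) and the BMP antagonist Grem1 (1.49). The list had 6 rises without vehicle rat 1, 5 without E2+3-MC rat 2 and 1 without E2+3-MC rat 3.

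Endothelial markers were lower, with 4 falls and 0 rises among 19 tested and a median difference of -0.50. Flt1 went from 473, 279 and 309 to 200.4, 151 and 220.4 (-0.82 ± 0.21, adjusted p = 0.022), the angiopoietin receptor Tek from 548, 347 and 332 to 231, 186 and 261 (-0.79 ± 0.22, adjusted p = 0.034), and Tie1 (-0.75) and the sialomucin Emcn (-0.68) fell. Pecam1 (-0.36, adjusted p = 0.508), Cdh5 (-0.76, adjusted p = 0.0583) and Kdr (-0.60, adjusted p = 0.141) were not called. The summed intensity of the list was 5253 to 9631 in the vehicle rats and 4565 to 4609 in the E2+3-MC rats. The list had 12 falls after quantile normalization, 7 without vehicle rat 3, 2 without E2+3-MC rat 2, 1 without E2+3-MC rat 3 and none without E2+3-MC rat 1. Markers of blood fell too, Hbb from 4479, 2068 and 4751 to 746, 2381 and 802 (-1.63 ± 0.44, adjusted p = 0.0265), Hbb-b1 by 1.65 and Alas2 by 0.73 on the log2 scale. The Hbb and Hbb-b1 genes are near copies, and E2+3-MC rat 2 lay within the vehicle range for Hbb. The count of blood falls was 1 without vehicle rat 3, E2+3-MC rat 1 or E2+3-MC rat 3.

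**Figure D4:**
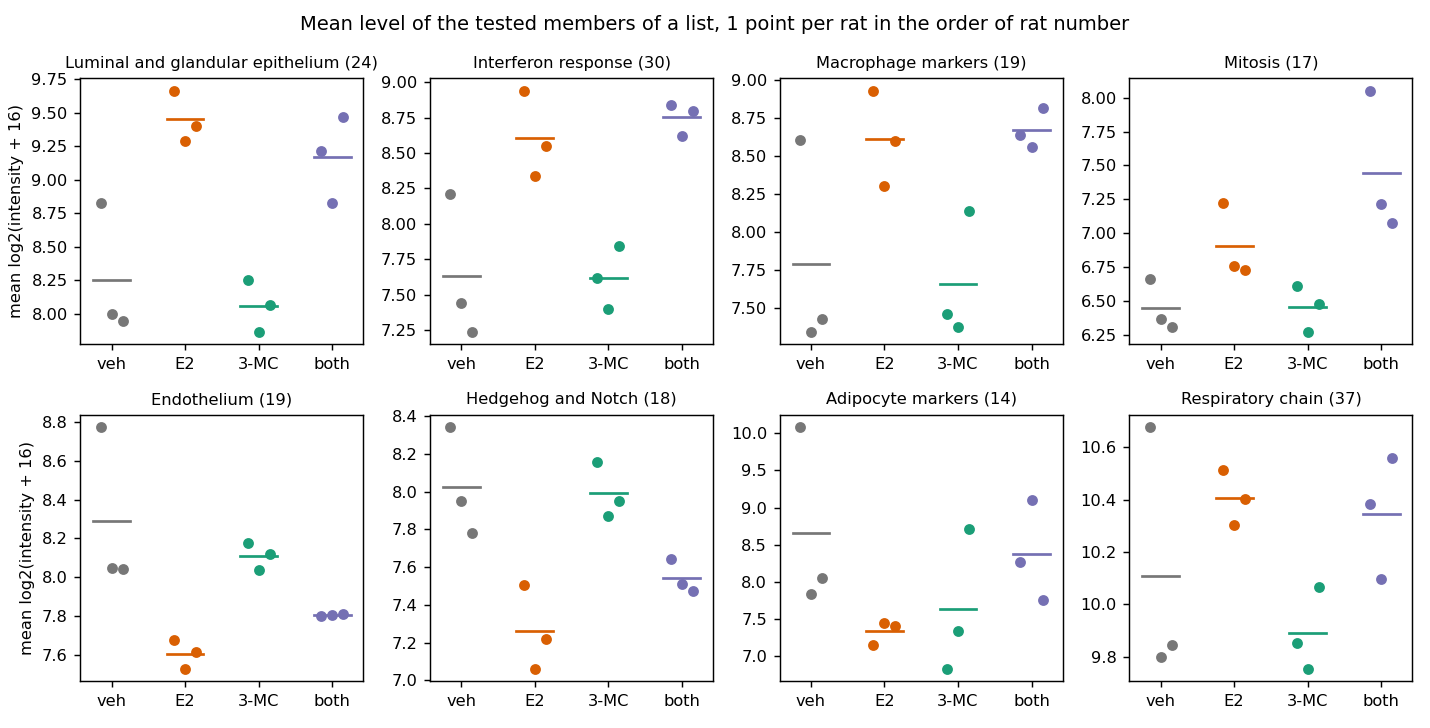
Mean log2(intensity + 16) over the tested members of 8 gene lists, 1 point per rat in the order of rat number, with the group mean as a bar; "both" is E2+3-MC. Vehicle rat 1 stands above the other vehicle rats in every panel, E2+3-MC rat 1 stands above the other rats for mitosis, and the 3 E2+3-MC rats lie close together for endothelium.

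The AhR battery gave no common change. Cyp1a1, the most used AhR target, was too dim to be tested, at 29.8, 28.2 and 15.3 with vehicle and 19.9, 24.9 and 32.4 with E2+3-MC. Cyp1b1 was at 31.6, 29.1 and 26.7 (vehicle) against 27.3, 31.6 and 29.4 (E2+3-MC), Cyp1a2 at 39.4, 42.0 and 46.5 (vehicle) against 46.1, 45.7 and 46.8 (E2+3-MC), and the AhR repressor Ahrr, whose promoter is printed above, at 53.9, 66.4 and 57.8 (vehicle) against 46.1, 51.2 and 43.6 (E2+3-MC). The vehicle and treated rats overlapped in the 3 Cyp1 genes, and in Ahrr the treated rats were all slightly lower. These values were read 24 h after the last dose. Of the 10 members of the AhR list bright enough to test, Nqo1 (0.49 ± 0.21, adjusted p = 0.214), Aldh3a1 (0.06 ± 0.22, adjusted p = 0.948) and Ahr itself (325, 210.5 and 196 against 198, 199.6 and 229, -0.18 ± 0.21, adjusted p = 0.775) were not called. Xdh, xanthine dehydrogenase, rose from 467, 253 and 182 to 971, 954 and 1011 (1.75 ± 0.27) and the actin-severing Scin from 113, 84.7 and 85.3 to 296, 139 and 446 (1.36 ± 0.29). Arnt2, a partner of AhR-family factors, fell from 821, 624 and 503 to 221, 357 and 131 (-1.47 ± 0.29, adjusted p = 0.00334), while the main partner Arnt was at 0.18 (adjusted p = 0.752). With E2 alone the same 3 genes differed from the same vehicle rats by 1.60, 2.16 and -2.64, and with 3-MC alone by 0.14, 0.04 and 0.11.

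Retinoid genes moved in both directions, 3 of 16 up and 2 down. Lrat, which stores retinol as esters, went from 21.3, 50.5 and 43.4 to 239, 122 and 383 (2.19 ± 0.30), the retinoic acid carrier Crabp2 rose by 1.30 with overlapping groups, and the retinoid-responsive Rarres1 rose by 1.28. Aldh1a1, which makes retinoic acid from retinaldehyde, fell from 686, 361 and 434 to 74.7, 119.9 and 102 (-2.12 ± 0.24, adjusted p = 1.16e-05), and Dhrs3, which turns retinaldehyde back to retinol, fell by 1.21 on the log2 scale. Of 18 prostaglandin genes, the receptor Ptger3 (-1.38) and the cyclooxygenase Ptgs1 (733, 307 and 307 against 184, 185 and 197, -1.06 ± 0.28) fell, and the carrier Slco2a1 (1.34), Anxa1 (1.32) and thromboxane synthase Tbxas1 (0.93) rose. Of 19 sterol synthesis genes 3 rose: Idi1 (285, 133 and 150.4 against 1187, 627 and 1356, 2.38 ± 0.29), Cyp51 (1.27) and Ebp (0.85). The sterol count was 11 without vehicle rat 1 and 1 without E2+3-MC rat 1 or rat 3, and the count of prostaglandin rises was 5 without vehicle rat 1 and 1 without E2+3-MC rat 1 or rat 3. Of 37 genes of protein folding and export, Ssr3 (0.96) and Pdia3 (0.73) rose, 5.41% beside 6.06% of all genes. That count was 13 after quantile normalization, where 12.8% of all genes were called higher. It was 23 without vehicle rat 1 and 6 without E2+3-MC rat 2. Without vehicle rat 2, vehicle rat 3, E2+3-MC rat 1 or E2+3-MC rat 3 it was 0.

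Some genes known to be active in the uterus, though not only there, were bright in all 6 rats. They were Actg2, Esr1, Pgr and Epcam (1486, 844 and 878 with vehicle, 1542, 1330.0 and 1982 with E2+3-MC). Fat markers varied widely between rats in both groups: Fabp4, the fatty acid carrier of fat cells, was at 4665, 699.6 and 1289 with vehicle and 1087, 3316 and 431 with E2+3-MC, and Adipoq, adiponectin, at 2342, 336 and 387 (vehicle) against 1367, 1151 and 2760.4 (E2+3-MC). Neither was called against vehicle (limma adjusted p = 0.902 and 0.412). In the E2+3-MC group, rat 3 was highest for Adipoq and lowest for Fabp4, whereas rat 2 was highest for 12 of the 14 adipocyte markers. Adipoq was called higher than with 3-MC alone (3.04, limma adjusted p = 0.0141). The one adipocyte marker of 14 that rose against vehicle was the glucose carrier Slc2a4 (0.75), which muscle also makes. That was 7.14% of the list, beside 6.06% of all genes. The summed intensity of the adipocyte list was 4070 to 23970 in the vehicle rats and 5401 to 10980 in the E2+3-MC rats. Of 17 stromal markers Mme rose (1.50), 5.88% beside 6.06% of all genes. By value 11 of the 17 were lower, and after quantile normalization 2 rose and 4 fell. None of 7 pericyte, 5 stratified epithelium or 3 oviduct markers was called, and of 6 nerve markers Gap43 fell (-1.20, adjusted p = 0.0429).

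To see where the combined treatment departed from estradiol alone, the 3 E2+3-MC rats were set against the 3 E2 rats. No gene was called by limma (0% of those tested), while 937 genes, 9.23%, had an unadjusted p under 0.05. The count was 2 after quantile normalization (0.0197%), 3 with the trend and robust options of eBayes together, 144 with only these 6 arrays in the model and 18 without E2+3-MC rat 3. The smallest adjusted p of a gene described here was that of Postn, periostin, a matrix protein of connective tissue. It was at 486, 362 and 369 in the E2 rats, 968, 1268 and 1277 in the E2+3-MC rats and 1914, 1244 and 1195 in the vehicle rats. The E2+3-MC and E2 rats did not overlap, and the difference was 1.49 ± 0.24 (SE, adjusted p = 0.0775), or 1.35 after quantile normalization (adjusted p = 0.00793). It was called in 6 of 17 alternative settings. The limma adjusted p-values ran from 4.16e-11 with array weights, a setting that called 6505 genes against E2, to 0.831 without E2 rat 3. The next smallest was 2.17e-05, with only these 6 arrays.

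Dnajc14, a chaperone cofactor of the endoplasmic reticulum, went the other way, at 313, 339.6 and 292 with E2, 138, 158 and 167 with both compounds and 217, 169.9 and 181 with vehicle (-0.96, adjusted p = 0.132). It was called in 4 of 17 settings, with limma adjusted p from 9.44e-11 with array weights to 0.9998 without E2 rat 2. Angpt1, a ligand of the endothelial receptor Tek, was at 84.6, 51.6 and 67.2 with E2, 168, 174 and 122 with both and 129, 128 and 134 with vehicle (1.03, adjusted p = 0.141). Ctnnd2, a catenin of cell contacts, was at 19.5, 27.1 and 21.1 with E2, 64.6, 66.0 and 50.5 with both and 151, 125 and 123 with vehicle (0.98, adjusted p = 0.132). These 4 genes were picked after their values were seen, because some settings called them. Values with both compounds lay near vehicle for Postn, Dnajc14 and Angpt1, and between E2 and vehicle for Ctnnd2.

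By value, the largest changes were smaller with both compounds than with estradiol alone. Of the 15 largest rises, chosen in the E2+3-MC rats, 14 were lower in those rats than in the E2 rats, with a median of -0.47, and all 15 of the largest falls were less low, with a median of 0.63. On the quantile scale these counts were 14 and 12. Of all 615 genes that rose, 63.1% were lower with both compounds than with E2 (75.4% on the quantile scale), beside 24.9% of all genes tested (52.7%). Of the 181 that fell, 165 were less low on the deposited scale and 134 on the quantile scale. The sterol synthesis genes were lower with both compounds in 15 of 19 (median -0.37) and the epithelial markers in 21 of 24 (median -0.20), while all 17 mitosis genes were higher (median 0.56), 14 of them on the quantile scale. Over all genes tested 7621 of 10154 were higher with both compounds on the deposited scale. E2+3-MC rat 1 was the highest treated rat in 16 of the 17 mitosis genes, and the list means were 7.22, 6.76 and 6.73 in the E2 rats against 8.05, 7.21 and 7.07 with both. No single gene of these passed the test, and E2+3-MC rat 2 was the lowest treated rat for 17 of the 19 sterol genes and 21 of the 24 epithelial markers.

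The differences from vehicle can be read side by side, given that both use the same 3 vehicle rats. Reg3g differed by 5.96 with E2+3-MC, 7.59 with E2 and 0.49 with 3-MC, and Olfm4 by 4.40, 6.08 and 0.44. S100g differed by 4.93, 4.93 and 0.85, and C3 by 6.44, 6.69 and 1.15. Among falls, Gstm7 differed by -2.94, -4.77 and -0.21, Mt2A by -1.88, -3.13 and -0.31, and Clu by -2.96, -3.41 and -0.25. With 3-MC alone the differences of these 7 genes ran from -0.31 for Mt2A to 1.15 for C3.

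**Figure D5:**
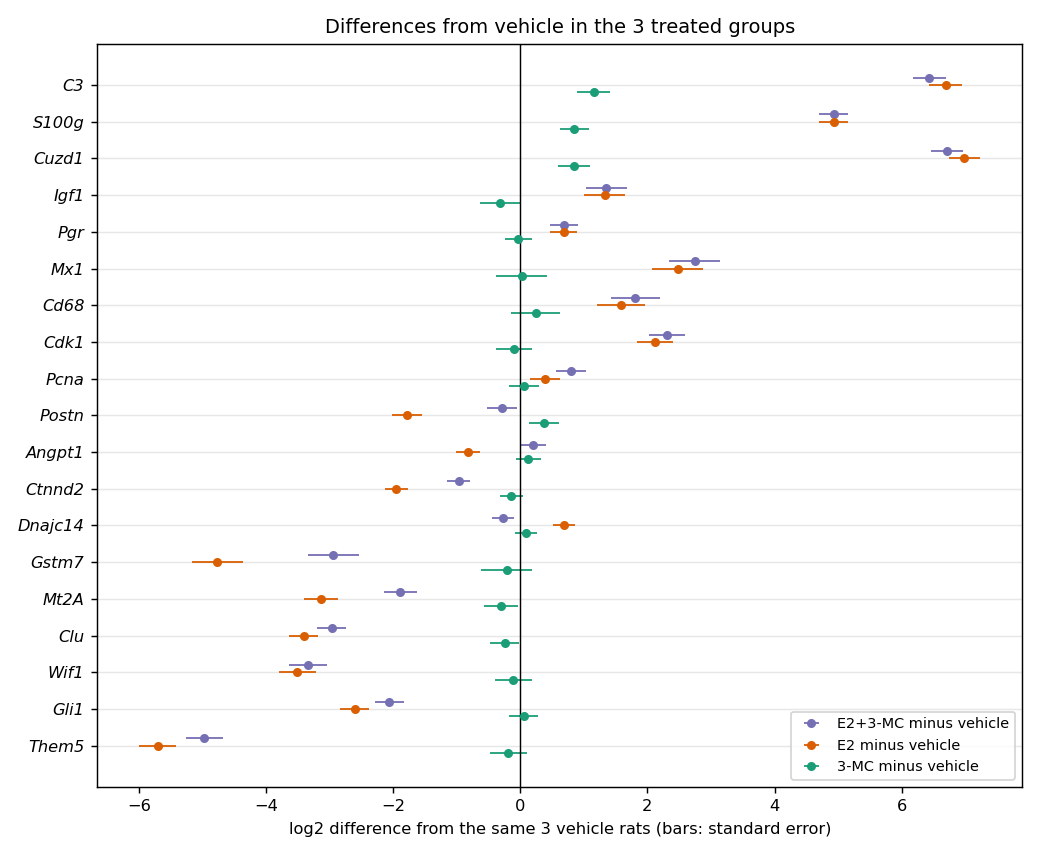
Log2 difference from the same 3 vehicle rats, with its standard error, for 19 named genes with E2+3-MC (purple), E2 (orange) and 3-MC (green). Purple and orange points lie side by side for C3, S100g and Cuzd1, and stand apart for Postn, Angpt1, Ctnnd2, Dnajc14 and Gstm7; green points lie nearest to 0 for most genes.

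Against 3-MC alone, 834 genes were called with E2+3-MC, 8.21% of those tested, 693 higher (6.82%) and 141 lower (1.39%). This comparison takes away the dose of 3-MC that both groups received and leaves the estradiol. C3 differed by 5.28, S100g by 4.09, Mx1 by 2.72, Cdk1 by 2.41, Clu by -2.72 and Wif1 by -3.23. All 6 differences were called, with adjusted p-values from 3.69e-10 for C3 to 2.28e-04 for Mx1.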

How the data were processed

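RNA of 12 rat uteri was measured on Affymetrix arrays, 1 array per rat, after Trizol extraction of total RNA and labelling as biotinylated cRNA, as the labels' protocols say. Each deposited value is the intensity of a probe set on a linear scale, which the authors made with Affymetrix Expression Console and PLIER, per the submitters' processing notes. Versions, settings, genome build, annotation and scaling between arrays were not given in the sources used here. No detection calls were used. Intensities ran from 1.16e-04 to 15672. Precision is limited by the number of arrays.

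The table holds 29214 probe sets, of which the platform annotation names 15310 with 1 gene symbol, 323 with several and 13581 with none. Of the former, 15279 matched a RefSeq gene of GRCr8 by Entrez ID and 31 did not, with 0 symbols changed. Probe sets without a single symbol were left out. The probe set with the highest mean was kept for each of 527 genes that had several, which left 14506 genes. Intensities were taken as log2(intensity + 16), and the dimmest 30% of genes by their mean on the 12 arrays (a limit of 6.44) were dropped. The remaining 10154 genes were tested two-sided with limma 3.58.1 in R 4.3.3 (lmFit and eBayes, 1 mean per group over all 12 arrays, 8 residual and 8.92 prior degrees of freedom), with Benjamini-Hochberg adjustment and a threshold of 0.05. The median standard error of a difference was 0.22 in log2 units. The steps were run on simulated data with independent normal errors and no array-wide shifts. That run cannot show how the calls respond to such shifts. Figures were drawn with matplotlib 3.10.9 under Python 3.11.15.

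Genes were named by rule: 14 markers whatever their result, the 15 largest rises and falls that did not overlap, and up to 5 called members per gene list, or 2 by value where none was called. Further members are given by value for their role. The comparison, the rule and the 51 lists (1222 genes, 891 tested) were chosen with earlier results of these data known, so list counts are descriptions. Members of a list were read beside the share called over all genes. Rat numbers were not used as pairs, since the groups are different animals. Deviations of same-numbered vehicle and E2+3-MC rats correlated at -0.10, 0.11 and -0.16, and those of different-numbered rats at -0.178 to 0.207. Deviations from means of 3 arrays cannot settle whether the numbers pair.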

Additional observations from a re-analysis of the deposited data

How the results depend on the processing

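Against vehicle, the 796 genes called became 2647 after quantile normalization, 5071 with array weights, 296 with only the 6 arrays of both groups, and 438 to 2699 with 1 rat left out. Weights ran from 0.0526 for vehicle rat 1 to 10.8 for E2 rat 3 and were estimated gene by gene, because the default estimate did not converge. Median centring gave 1069 genes, 639 higher and 430 lower, and leaving out vehicle rat 1 gave 2483 higher and 216 lower. Without vehicle rat 3 there were 654 genes, 411 higher and 243 lower. Of 156 named genes that were called, 92 remained called with only the 6 arrays, and 110 to 155 with 1 rat left out; none reversed. With the rat number as a replicate block, 1089 genes were called against vehicle, 809 higher and 280 lower, all 796 among them. The same block gave 0 genes against E2 and 1140 against 3-MC. In the labels, same-numbered rats share only a number. Against E2, the 0 genes called became 2 after quantile normalization, 1 with median centring, 1 with the lowest 50% left out, 3 with trend and robust, 6505 with array weights, 144 with only the 6 arrays and 0 to 18 with 1 rat left out. Against 3-MC, the 834 became 2647, 4266 with weights, 2270 with only the 6 arrays and 413 to 889 with 1 rat left out. The cause of these shifts was not tested.

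Differences that were not called reversed as follows. Aldh3a1 was at -0.0533 after quantile normalization and -0.0295 with median centring, and ran from -0.0229 (without vehicle rat 1) to 0.168 with 1 rat left out. Lypd3 was at 0.31 with weights and ran from -0.35 to 0.08 with 1 rat left out, Ahr from -0.31 to 0.0348 and Plin1 from -1.11 to 0.0389, each highest without vehicle rat 1. Fabp4 was at 0.0156 with weights and ran from -1.22 to 0.29, positive without vehicle rat 1 (0.29) and without E2+3-MC rat 3 (0.23). Offsets of 1 and 64, no filter and another probe set per gene moved none of the 3 counts by more than 1.5 times. With 3 rats per group, the values of single genes near the threshold are the least certain.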
